A study of Homo sapiens with 8 samples.

Results

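The mRNA levels of 10 enzymes that make asparagine, serine, proline and the one-carbon units of folate were followed in 2 renal cell carcinoma lines cultured with or without the branched-chain amino acids (BCAA) isoleucine, leucine and valine. The 10 genes, ASNS, PHGDH, PSAT1, PSPH, SHMT2, MTHFD2, MTHFD1L, ALDH1L2, ALDH18A1 and PYCR1, were taken by their Ensembl identifiers from the 27776 genes listed in either of the deposited tables, as biosynthetic enzymes known as targets of the transcription factor ATF4. All 10 were listed for both lines.

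The study sequenced RNA of 8 libraries, with 2 libraries in each of 4 groups. They were 769-P with BCAA, 769-P without BCAA, CAKI-1 with BCAA and CAKI-1 without BCAA. Both are established human renal cell carcinoma lines, and the labels give no genetic change made to either. The BCAA groups received isoleucine and leucine at 0.38 mM each together with valine at 0.17 mM, and treatment lasted 16 hours in all 4 groups. The depleted medium was made from RPMI 1640 powder without amino acids and 10% dialyzed serum. The study's methods do not state whether amino acids other than BCAA were added back, with or without BCAA. Routine culture was in RPMI 1640 for 769-P and in MEM for CAKI-1, so a difference between the lines and a difference between their media cannot be told apart. The basal MEM formula, unlike RPMI 1640, holds no asparagine, serine or proline. The medium used for CAKI-1 during the 16 hours was not stated separately. The labels do not say whether replicates were separate cultures, and the study's methods speak of independent experiments for its cell work in general without naming these libraries, so p-values measure the spread between these libraries, which may be technical.

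Asparagine synthetase, the serine pathway, the proline pathway and mitochondrial folate metabolism share substrates. Serine is made from a glycolytic intermediate, gives its side-chain carbon to folate while becoming glycine, and so feeds nucleotide synthesis. When amino acids run short, uncharged tRNA activates the kinase GCN2, translation of ATF4 rises, and ATF4 raises transcription of many of these enzymes. In this design, medium without BCAA is the condition lacking isoleucine, leucine and valine, and the supply of other amino acids is not stated. Every fold change below is the level with BCAA over the level without.

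Values are normalized counts, that is, reads per gene divided by a size factor for the library. Each line's table was normalized on its own, so tests were made within a line, and the lines were compared only through the difference between their BCAA effects. The libraries held 30979773 to 64256834 reads on listed genes, and those of 769-P with BCAA were the deepest (64256834 and 55829324 reads, against 39062721 and 40130258 without). Of 8 renal carcinoma markers, 6 were at a mean of at least 10 in each line, among them PAX8 and KRT8. NDUFA4L2 was at a mean of 1.66 with and 1.23 without BCAA in 769-P. PAX2 was not listed for CAKI-1, and CA9 was listed in neither table. Of 6 markers of other cell types, COL1A1 alone reached 10, with means of 162 (with BCAA) and 214 (without) for 769-P and of 133021 (with) and 107470 (without) for CAKI-1, and its part in the results was not tested. A mean level in bulk RNA does not separate fewer expressing cells from less RNA per cell.

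With BCAA in the medium, 8 of the 10 enzymes fell in 769-P, 1 rose (ALDH18A1) and 1 was not called (ALDH1L2). Calls were made at an adjusted p under 0.05 in limma. Of the 22391 genes tested in 769-P, 18.2% were called lower and 20.3% higher. In CAKI-1, 2 enzymes fell (ASNS and MTHFD1L), 2 rose (PSPH and ALDH18A1) and 6 were not called, against 9.05% of 21347 tested genes called lower and 10.8% called higher. The median log2 fold change of the 10 was -1.02 in 769-P and -0.04 in CAKI-1, where the medians of all tested genes were -0.02 and -0.01. The log2 fold change with BCAA was lower in 769-P than in CAKI-1 for 8 of the 10 enzymes by the interaction test. In that test, 10.1% of 19406 genes were called in that direction and 10.9% in the other. The 10 genes together took 0.0872% and 0.0878% of the reads in the 769-P libraries with BCAA and 0.212% in each library without. In CAKI-1 they took 0.176% and 0.180% with and 0.181% in each library without.

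**Figure D1:**
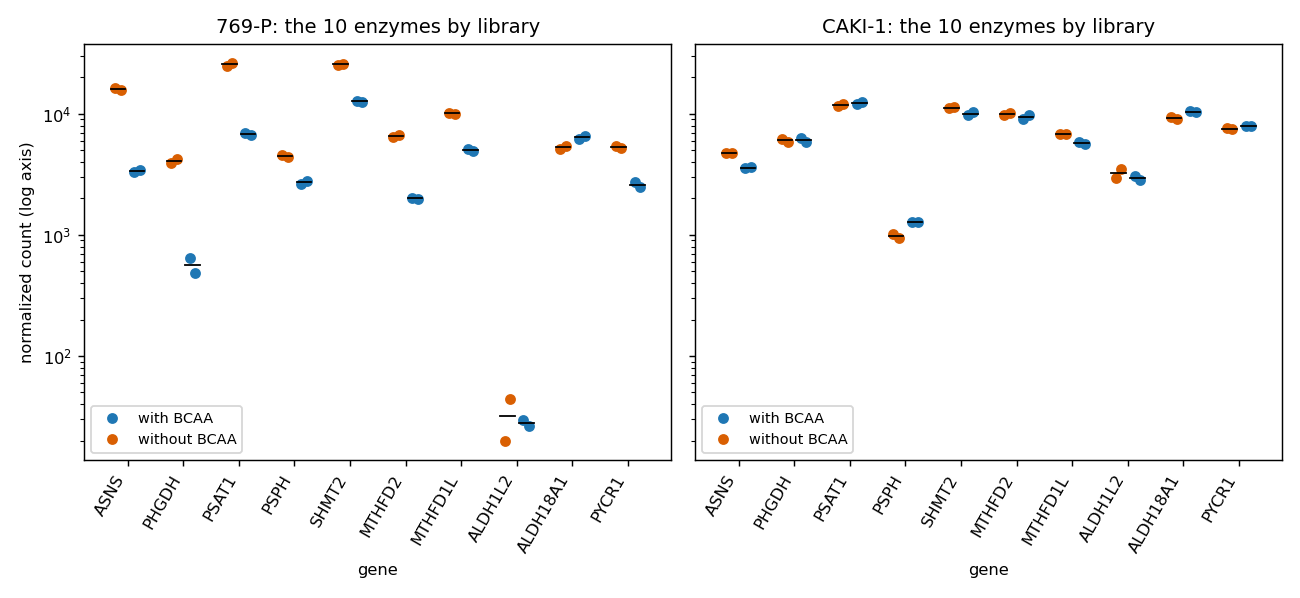
Normalized counts of the 10 enzymes (vertical log axis) in each of the 8 libraries, with 1 panel per line; points are libraries, blue with BCAA and orange without, and black bars are means of 2. In 769-P the orange points of 8 genes lie above the blue ones, while ALDH1L2 sits between 19.9 and 44.0; the panels share an axis, but the tables were normalized separately.

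Asparagine synthetase, ASNS, transfers the amide of glutamine to aspartate and is the classical target of the amino acid response (chr7:97852118-97872542 on GRCh38, minus strand). In 769-P it was at 3323 and 3432 with BCAA and at 16438 and 15854 without. In CAKI-1 it was at 3553 and 3635 with BCAA and at 4715 and 4741 without. In both lines the libraries with BCAA were the lower ones and the groups did not overlap. The log2 fold change was -2.26 ± 0.05 (SE, adjusted p = 2.3e-11) in 769-P, a 4.78-fold higher mean without BCAA, and -0.40 ± 0.06 (adjusted p = 6.7e-04) in CAKI-1, a 1.32-fold higher mean without. The effects differed by -1.86 (95% interval -2.01 to -1.71, adjusted p = 1.4e-09). The annotated exons of AC079781.5, on the same strand, overlap 44.6% of the exonic bases of ASNS, so reads in that stretch could not be assigned to 1 gene alone.

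The promoters of the enzymes were searched because ATF4, with a C/EBP partner, binds a composite element whose core reads TGATGNAA. Windows of 300 bases around RefSeq transcription starts (250 before, 50 after, GRCh38.p14) were given for 6 of the 10 genes: ASNS, PHGDH, PSAT1, MTHFD2, MTHFD1L and ALDH18A1. No window was used for PSPH, SHMT2, ALDH1L2 and PYCR1. TGATGNAA or its reverse complement TTNCATCA was in a window of 2 of the 6 genes, ASNS and MTHFD1L, and of 4.46% of all 27305 genes with a window. Genes with several starts have several windows, which overlap where starts lie close. A match was in 4 of the 10 windows of the 6 genes and in 3.62% of all 35116 windows. Of those 4 windows, 3 belong to MTHFD1L and hold the same 8 bases, so they are not separate sites. The search was chosen with the expression results known, and any bearing of a match on the BCAA effect was not tested. These are the stretches around both matches, with the 8 matching bases in capitals.
ASNS, chr7:97872458-97872487, minus strand: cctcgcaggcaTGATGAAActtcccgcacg
MTHFD1L, chr6:150866346-150866375, plus strand: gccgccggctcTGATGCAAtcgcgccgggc
Both matches are on the strand of the gene. The ASNS match begins 68 bases before a start at position 97872408. The MTHFD1L match begins 129 bases before 1 of its annotated starts, 90 before another and 24 after 1 more. A match is a description of the letters and not a measured binding site. PHGDH, PSAT1, MTHFD2 and ALDH18A1 had no match, which says only that these letters are not in their windows.

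The 3 enzymes of serine synthesis fell together in 769-P and did not in CAKI-1. PHGDH, phosphoglycerate dehydrogenase, makes the first committed step from 3-phosphoglycerate (chr1:119648411-119744226, plus strand). Its normalized counts in 769-P were 642 and 483 with BCAA and 3935 and 4246 without. This was the largest change among the 10 enzymes in either line, a 7.27-fold higher mean without BCAA (log2 fold change -2.87 ± 0.11 SE, adjusted p = 1.8e-09). In CAKI-1 the values were 6270.1 and 5835 with BCAA and 6159 and 5912 without, the groups overlapped, and the log2 fold change was 0.00 with a 95% interval of -0.13 to 0.14. The effects differed by -2.88 (interval -3.18 to -2.57, adjusted p = 2.1e-08). As a share of reads on listed genes, PHGDH took 0.00132% and 0.00101% with BCAA and 0.00811% and 0.00865% without in 769-P, beside 0.0148% to 0.0159% over the 4 CAKI-1 libraries. Those shares come from separate tables and the difference in level between lines was not tested.

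PSAT1, the aminotransferase that follows PHGDH and takes nitrogen from glutamate (chr9:78297143-78330093, plus strand), was at 6963 and 6661 with BCAA and at 25102 and 26390 without in 769-P. Its log2 fold change there was -1.92 ± 0.04 (SE, adjusted p = 5.7e-11), with groups far apart. In CAKI-1 it was at 12119 and 12540.2 with BCAA and at 11611 and 11981 without. Those groups lay close without overlapping, and the log2 fold change of 0.06 (95% interval -0.06 to 0.18) was not called. Reads on listed PSAT1 pseudogenes came to 0.713% of the PSAT1 reads in 769-P and 0.597% in CAKI-1.

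PSPH, the phosphatase that releases serine (chr7:56011051-56051604, minus strand), was the enzyme called in opposite directions in the lines. In 769-P it was at 2623 and 2813 with BCAA and at 4567 and 4439 without, and it fell by 0.73 on the log2 scale (SE 0.05, adjusted p = 5.6e-07). In CAKI-1 it was at 1279 and 1290 with BCAA and at 1009 and 938 without, and it rose by 0.40 (SE 0.08, adjusted p = 0.0041). In neither line did the groups overlap. The difference of the effects was -1.13 (95% interval -1.32 to -0.93, adjusted p = 1.5e-06). None of the changes of PSPH reached 2-fold.

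**Figure D2:**
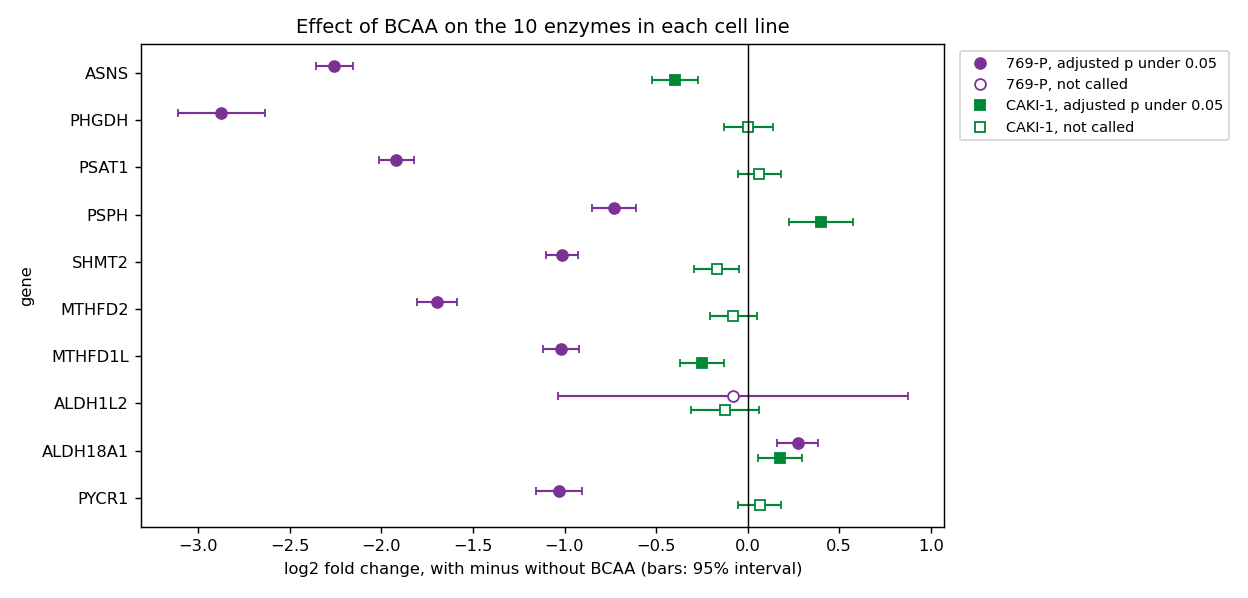
Log2 fold change with BCAA over without (horizontal axis) for the 10 enzymes, purple circles for 769-P and green squares for CAKI-1; bars are 95% intervals from limma, and filled symbols have an adjusted p under 0.05. The 769-P effects run from -2.87 to 0.27 and the CAKI-1 effects from -0.40 to 0.40.

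Among the mitochondrial folate enzymes, SHMT2, MTHFD2 and MTHFD1L fell in 769-P. SHMT2 splits serine into glycine and a one-carbon unit carried by tetrahydrofolate (chr12:57229327-57234935, plus strand). It was at 12810 and 12600.3 with BCAA and at 25456 and 25872 without in 769-P, a 2.02-fold higher mean without BCAA with no overlap. In CAKI-1 it was at 9726 and 10323 with BCAA and at 11206 and 11323 without, again with no overlap. The log2 fold changes were -1.01 ± 0.04 (SE, adjusted p = 2.0e-09) and -0.17 ± 0.06 (adjusted p = 0.055), so SHMT2 just missed the threshold in CAKI-1. It was called lower there by edgeR with TMM scaling (adjusted p = 0.039) and by DESeq2 (adjusted p = 0.044). It stayed uncalled under 10 of 14 other settings, among them edgeR with the deposited size factors. The effects in the lines differed by -0.85 (adjusted p = 9.8e-07).

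MTHFD2 oxidises the one-carbon unit in the mitochondrion with NAD or NADP (chr2:74198562-74217565, plus strand). In 769-P it was at 2022 and 1998 with BCAA and at 6388 and 6648 without. The groups were far apart, with a log2 fold change of -1.70 ± 0.05 (SE, adjusted p = 3.6e-10) and a 3.24-fold higher mean without BCAA. In CAKI-1 it was at 9140.0 and 9809 with BCAA and at 9803 and 10215 without. These groups overlapped, and the log2 fold change was -0.08 (95% interval -0.21 to 0.05). Exons of SLC4A5 and AC006030.1 on the opposite strand overlap up to 33.2% of the MTHFD2 exonic bases. A base under both genes counts for each in this share.

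MTHFD1L releases the one-carbon unit as formate for export to the cytosol (chr6:150865549-151101887, plus strand). It was at 5094 and 4891 with BCAA and at 10221 and 10016 without in 769-P. In CAKI-1 it was at 5830.4 and 5694 with BCAA and at 6855 and 6849 without. The libraries without BCAA were the higher ones in both lines, with log2 fold changes of -1.02 ± 0.05 (SE, adjusted p = 6.9e-09) and -0.25 ± 0.05 (adjusted p = 0.0078). The effects differed by -0.77 (95% interval -0.91 to -0.63, adjusted p = 3.1e-06).

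ALDH1L2 oxidises 10-formyltetrahydrofolate in the mitochondrion and yields NADPH (chr12:105019784-105084577, minus strand). In 769-P its libraries with BCAA held 39 and 31 reads of it, and those without held 16 and 36. The groups overlapped, and the log2 fold change of -0.08 had a 95% interval of -1.03 to 0.87. With so few reads, that interval still holds a fall of the size seen for MTHFD1L in 769-P (-1.02). In CAKI-1 its normalized counts were 3063 and 2843 with BCAA and 2940 and 3517 without, with overlap and a log2 fold change of -0.12 (95% interval -0.31 to 0.06). The difference of the effects was 0.04 (95% interval -0.73 to 0.82). As a share of reads on listed genes, ALDH1L2 took 4.1e-05% to 9.0e-05% in 769-P and 0.00726% to 0.00882% in CAKI-1.

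The proline enzymes went in opposite directions in 769-P. PYCR1, the mitochondrial reductase that completes proline synthesis (chr17:81932384-81942412, minus strand), was at 2717 and 2473 with BCAA and at 5402 and 5185 without. Its log2 fold change was -1.03 ± 0.06 (SE, adjusted p = 4.8e-08) with no overlap. In CAKI-1 it was at 7888 and 7950.5 with BCAA and at 7629 and 7502 without, a log2 fold change of 0.07 (95% interval -0.05 to 0.18) that was not called. The effects differed by -1.10 (adjusted p = 5.0e-07). Exons of AC145207.4 and MYADML2 overlap up to 29.7% of the exonic bases of PYCR1, where a base under both counts for each.

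ALDH18A1, the synthase of pyrroline-5-carboxylate upstream of PYCR1 (chr10:95605929-95656706, minus strand), was the enzyme that was higher with BCAA in both lines. It was at 6249 and 6554 with BCAA and at 5122 and 5477 without in 769-P. It was at 10512 and 10408 with BCAA and at 9484 and 9034 without in CAKI-1. The groups did not overlap in either line, and the log2 fold changes were 0.27 ± 0.05 (SE, adjusted p = 0.0010) and 0.18 ± 0.05 (adjusted p = 0.043). The difference between the lines was 0.10 (95% interval -0.06 to 0.25, adjusted p = 0.40). The 769-P call was lost when any 1 of its 4 libraries was left out and the spread taken from the remaining 3 (adjusted p from 0.074 to 0.14), and held in 4 of 4 such fits with the spread taken from both lines. The CAKI-1 call was lost under 7 of 14 other settings, with an adjusted p of 0.057 in edgeR with TMM scaling.

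With any 1 CAKI-1 library left out and the spread taken from the remaining 3, limma called 0 genes of the whole table in either direction, where between 4084 and 5590 genes had an unadjusted p under 0.05. With the spread taken from all remaining libraries of both lines, the CAKI-1 calls of ASNS, MTHFD1L and PSPH held in 4 of 4 such fits. That of ALDH18A1 held in 2 of 4, and was lost without replicate 1 with BCAA (adjusted p = 0.076) and without replicate 2 without BCAA (adjusted p = 0.17).

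Levels of different genes were compared per kilobase of merged exons, within 1 group at a time. Merged exons join those of all annotated transcripts and can be longer than the mRNA present. The order below therefore depends on these lengths, such as 9.217 kilobases for PHGDH and 2.188 for PSAT1. PSAT1 had the highest level in every group. Without BCAA in 769-P it stood at 11767 normalized counts per kilobase (mean of 2), followed by SHMT2 at 5305 and ASNS at 3624, then MTHFD1L, PYCR1, PSPH, ALDH18A1, MTHFD2, PHGDH and ALDH1L2. Only ALDH18A1 and MTHFD2 overlapped their neighbour in that order, with means of 1407 and 1338. With BCAA the 769-P order was PSAT1 (3113), SHMT2 (2626), ALDH18A1 (1700), MTHFD1L, PSPH, PYCR1, ASNS, MTHFD2, PHGDH and ALDH1L2, with MTHFD1L and PSPH overlapping. ASNS thus ranked 3 of 10 without BCAA and 7 of 10 with it.

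In CAKI-1 the order without BCAA was PSAT1 (5391 per kilobase), PYCR1 (2621), ALDH18A1 (2459), SHMT2, MTHFD2, MTHFD1L, ASNS, PHGDH, ALDH1L2 and PSPH, in which ALDH1L2 and PSPH overlapped. With BCAA, ALDH18A1 (2778) stood before PYCR1 (2744), SHMT2 and MTHFD2 overlapped, and PSPH (465) stood before ALDH1L2 (347). The other places were the same in both groups.

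Cells hold cytosolic or sister forms of several of these enzymes, and their levels moved differently. SHMT1, the cytosolic serine hydroxymethyltransferase, rose with BCAA in 769-P, from 1337 and 1503 without to 3959 and 4239 with (log2 fold change 1.53 ± 0.07 SE, adjusted p = 6.9e-09). It also rose in CAKI-1, from 736 and 681 without to 1149 and 1253 with (0.76 ± 0.09, adjusted p = 1.4e-04). MTHFD1, the cytosolic trifunctional folate enzyme, rose by 0.58 in 769-P (adjusted p = 1.3e-06, and 0.0504 when replicate 1 without BCAA was left out) and by 0.41 in CAKI-1 (adjusted p = 7.0e-04). MTHFD2L, the sister of MTHFD2, had log2 fold changes of 0.18 and 0.16, neither called.

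Expressed per kilobase, SHMT2 stood 28.6-fold and 25.9-fold above SHMT1 in the 769-P libraries without BCAA and 4.87-fold and 4.47-fold above it with BCAA. The log2 ratio changed by -2.54, where the SD between replicates was 0.10. In CAKI-1 SHMT2 stood 22.9-fold and 25.0-fold above SHMT1 without BCAA and 12.7-fold and 12.4-fold above it with BCAA, a change of -0.93 (SD 0.07). The size of these ratios depends on the merged exon lengths, and their change with BCAA does not. The ratio of MTHFD1L to MTHFD1 was 3.90 and 3.72 without BCAA and 1.25 and 1.26 with it in 769-P. The 769-P means with BCAA, before dividing by length, were 4993 for MTHFD1L (5021 bases) and 7423 for MTHFD1 (9377 bases). In CAKI-1 the ratio of MTHFD1L to MTHFD1 was 4.90 and 4.88 without BCAA and 3.11 and 3.08 with it. The changes of this ratio were -1.60 (SD 0.03) and -0.66 (SD 0.01). The ratio of MTHFD2 to MTHFD2L changed by -1.88 in 769-P (SD 0.20) and by -0.24 in CAKI-1 (SD 0.16). The CAKI-1 change was -0.087 without replicate 1 with BCAA and -0.39 without replicate 2 with BCAA. The groups did not overlap for any of the 3 pairs in either line. With 2 libraries against 2, the exact two-sided permutation test gave p = 0.33 for each of the 6 ratios, the smallest p it can give. ALDH1L1, the cytosolic form of ALDH1L2, was below the filter in CAKI-1, and PYCR3 was not analysed here.

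**Figure D3:**
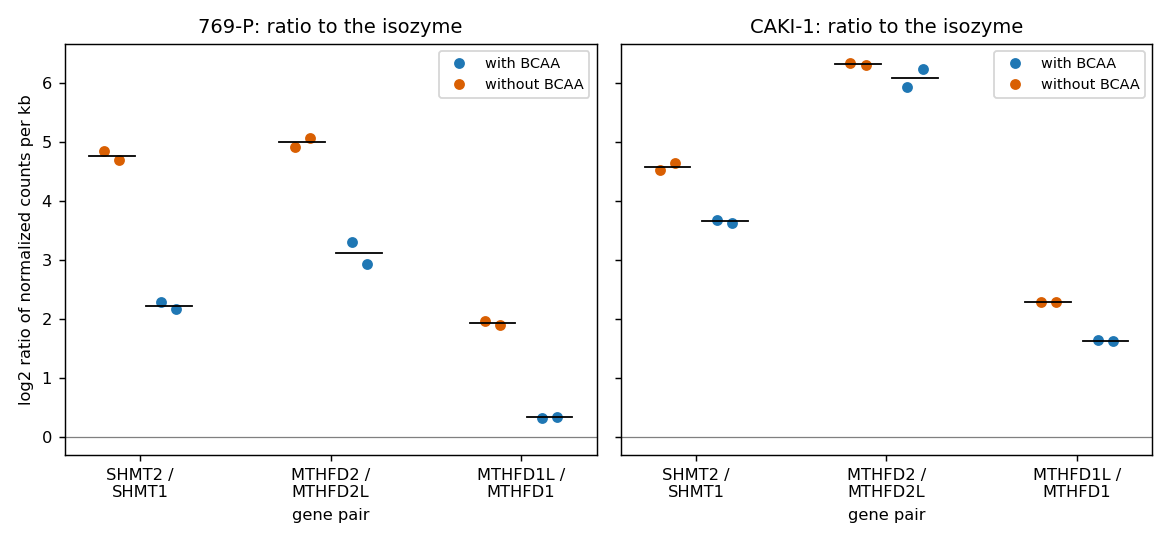
Log2 ratio of each enzyme to its isozyme, in normalized counts per kilobase (vertical axis), for 3 pairs in each line; points are libraries, blue with BCAA and orange without, and black bars are means of 2. With BCAA the ratio of SHMT2 to SHMT1 changes by -2.54 in 769-P and by -0.93 in CAKI-1 on this axis, and that of MTHFD2 to MTHFD2L by -1.88 and -0.24.

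A list of 42 other enzymes and carriers of the same pathways was examined beside the 10. In 769-P, 37 were tested, of which 14 rose, 5 fell and 18 were not called, and their median effect was 0.12 on the log2 scale, where 20.3% of all tested genes rose and 18.2% fell. In CAKI-1, 38 were tested, of which 10 rose, 2 fell and 26 were not called, with a median of 0.07, where 10.8% of all tested genes rose and 9.05% fell. Some of the counts below, by pathway, lie near those shares, and with 3 to 16 genes a pathway none is read as a result about it. Of the 36 tested in both lines, 8 rose in both (GOT2, SHMT1, SFXN1, OAT, MTHFD1, TYMS, GGH and SLC19A1), 2 fell in both (SDSL and SERINC1), and 0 were called in opposite directions by limma at an adjusted p under 0.05. The share of all genes called in both lines, in the same or in opposite directions, was not computed. These counts are therefore not read as a result about the list. With quantile normalization, limma no longer called GOT2 (adjusted p = 0.055) and OAT (adjusted p = 0.060) higher in CAKI-1. When any 1 of the 769-P libraries was left out and the spread taken from the remaining 3, 1 or 2 of the 42 were called lower and 6 to 9 higher, and the calls over all 22391 genes also dropped, to 658 to 1456 lower and 1173 to 1632 higher. With the spread taken from both lines, the same fits called 5 or 6 of the 42 lower and 10 to 13 higher.

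Among the folate genes of this list, TYMS, thymidylate synthase, which consumes the folate-bound carbon for dTMP, was at 7203 and 7511 with BCAA and at 3285 and 3280 without in 769-P. In CAKI-1 it was at 2802 and 2696 with and at 1293 and 1286 without. The libraries with BCAA were the higher ones in both lines, and TYMS rose by 1.16 ± 0.05 and 1.09 ± 0.07 on the log2 scale (SE, adjusted p = 3.7e-09 and 1.8e-06). The annotation places up to 46.6% of its exonic bases under other genes, ENOSF1 and TYMSOS on the opposite strand. A base under both of those genes counts for each. GGH, which trims folate polyglutamates, rose by 0.85 and 0.86, and the reduced folate carrier SLC19A1 by 0.50 and 0.55. In all, 5 folate genes rose and 1 fell of 15 tested in 769-P, and 6 rose of 16 in CAKI-1. The one that fell was FPGS, folylpolyglutamate synthase, at -0.22 (adjusted p = 0.0041). With 1 769-P library left out, the FPGS call was lost in 4 of 4 fits (adjusted p from 0.10 to 0.18), and in 2 of 4 with the spread from both lines (0.11 and 0.13). The 769-P call of SLC19A1 was lost in 4 of 4 fits (adjusted p from 0.062 to 0.12) and held in 4 of 4 with the spread from both lines.

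Of the serine and glycine genes, 5 rose and 3 fell of 13 tested in 769-P, and 2 rose and 2 fell of 13 in CAKI-1. SFXN1, the mitochondrial serine carrier, rose by 0.89 in 769-P and by 0.73 in CAKI-1. GLDC of the glycine cleavage system rose from a mean of 2329.8 without to 4667 with BCAA in 769-P, and its log2 fold change of 0.71 in CAKI-1 was not called. With the spread from both lines it was called there (adjusted p = 0.0043), and its value ran from 0.42 without replicate 2 with BCAA to 0.99 without replicate 1 with BCAA. CBS, which takes serine into cystathionine, fell by 1.16 in 769-P and was at -0.25 in CAKI-1 without a call. Its 769-P call was lost without either library with BCAA (adjusted p = 0.071 and 0.065) and without replicate 1 without BCAA (adjusted p = 0.056), and held in 4 of 4 fits with the spread from both lines. SDSL, a serine dehydratase-like enzyme, fell by 0.55 and 0.58, and SERINC1, a serine incorporator, fell by 0.32 and 0.28. With 1 769-P library left out, the SDSL call there was lost in 4 of 4 fits and the SERINC1 call in 3 of 4, and both held in 4 of 4 with the spread from both lines. The lowest value in 769-P, -1.98 for the serine dehydratase SDS, was at means of 3.42 and 10.5 and was not called. Its value ran from -3.47 without replicate 2 with BCAA to -0.50 without replicate 1 with BCAA, and it was called with the replicate block (adjusted p = 0.042) and, with the spread from both lines, without replicate 2 with BCAA (adjusted p = 0.017).

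Of the asparagine and aspartate genes, 2 rose and 1 fell of 5 tested in 769-P, and 1 rose and 0 fell of 6 in CAKI-1. The aspartate aminotransferases moved apart in 769-P, where the cytosolic GOT1 was at 5612 and 5595 with BCAA against 10182 and 10351 without, and the mitochondrial GOT2 at 10935 and 10719 with against 6545 and 6664 without. GOT1 fell by 0.87 (adjusted p = 1.5e-08) and GOT2 rose by 0.71 (adjusted p = 8.4e-08). In CAKI-1, GOT1 was at -0.10 without a call and GOT2 rose by 0.26. ASRGL1, which hydrolyses asparagine, rose by 1.47 in 769-P at means of 93.8 with and 33.3 without BCAA. That call was lost in 4 of 4 fits with 1 769-P library left out (adjusted p from 0.061 to 0.0997), and in 3 of 4 with the spread from both lines (0.052 to 0.066). Of the proline genes, 2 rose of 4 tested in 769-P and 1 of 3 in CAKI-1. OAT, ornithine aminotransferase, rose by 0.53 and 0.36, and the hydroxyproline dehydrogenase PRODH2, tested in 769-P alone, rose by 1.50. With 1 769-P library left out, the OAT call there was lost in 2 of 4 fits and the PRODH2 call in 3 of 4.

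The interaction test called 6 of the 36 other genes tested in both lines, 3 in each direction, where it called 10.1% of all genes below and 10.9% above. GOT1 (-0.77), CBS (-0.91) and SLC25A32 (-0.28) were further down or less far up in 769-P. GOT2 (0.45), SHMT1 (0.77) and SFXN3 (0.33) were further up. SLC25A32, the mitochondrial folate carrier, and SFXN3, a homologue of SFXN1, were singled out after their values were seen. Exons of AC012213.5 (same strand) and DCAF13 (opposite strand) overlap up to 80.8% of the SLC25A32 exonic bases. A base under both of those genes counts for each. The SLC25A32 call (adjusted p = 0.033) was lost in 5 of 8 fits with 1 library left out, with adjusted p from 0.071 to 0.13, each without replicate 2 with BCAA or either library without BCAA of 769-P, or without replicate 1 of either CAKI-1 group. It was also lost with the replicate block (adjusted p = 0.062). For TYMS and GGH the differences were 0.07 and -0.02, with 95% intervals of -0.09 to 0.24 and -0.19 to 0.15.

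**Figure D4:**
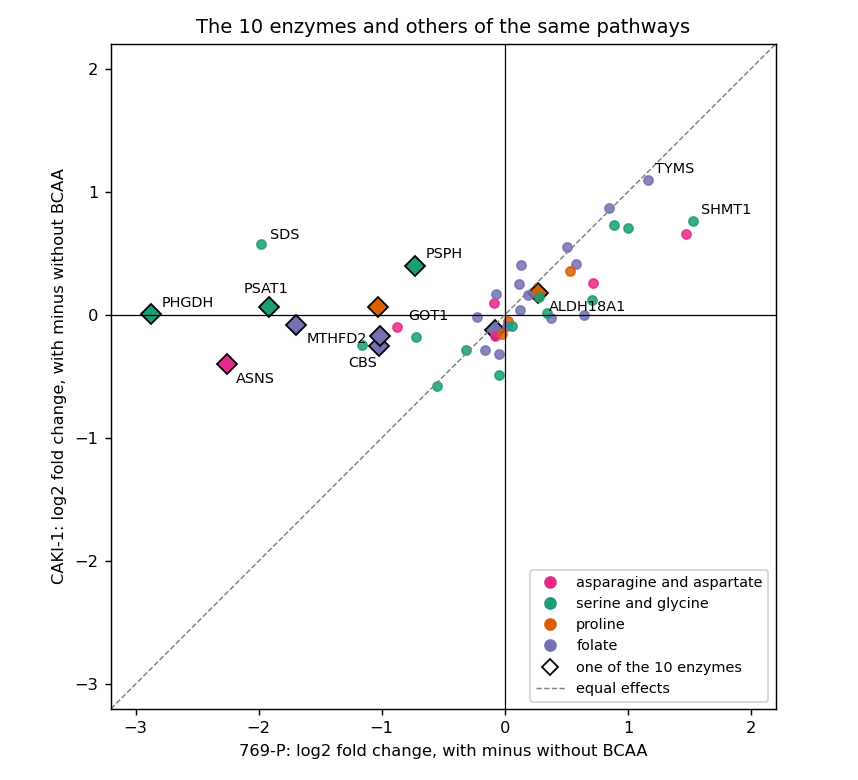
Log2 fold change with BCAA over without in 769-P (horizontal) and CAKI-1 (vertical) for the 10 enzymes (diamonds) and the 36 other genes of their pathways tested in both lines (circles), coloured by pathway; the dashed line marks equal effects. Diamonds of 8 enzymes lie left of the dashed line, PHGDH farthest at -2.87 and 0.00, while TYMS lies close to the line at the upper right.

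ATF4, the regulator named in the choice of these enzymes, was itself lower with BCAA in both lines. It was at 15887 and 16581 with BCAA and at 32276 and 31461 without in 769-P, and at 16462 and 17194 with and 22678 and 22594 without in CAKI-1. The log2 fold changes were -0.97 ± 0.04 (SE, adjusted p = 3.9e-09) and -0.43 ± 0.05 (adjusted p = 2.5e-04), and they differed by -0.55 (adjusted p = 4.8e-05). These are mRNA levels, and ATF4 protein was not measured in these data.

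The mean of the 10 enzymes' log2 values, centred within each line over the 8 libraries, changed by -1.23 in 769-P and by -0.03 in CAKI-1. Among 10881 genes with a mean of at least 100 in both lines, the 5 genes outside the 10 that lay closest to that profile were APOL6, RND3, SHISA9, RUSC2 and ODC1, with a root mean square difference of 0.03 to 0.05 on the log2 scale. Their effects were -1.17 to -1.22 in 769-P and -0.09 to 0.06 in CAKI-1, which follows from choosing them by closeness to that profile. Of the 10 enzymes themselves, PYCR1 and SHMT2 lay closest to their own mean, at 0.10 each, and PHGDH farthest, at 0.59.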

How the data were processed

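RNA-seq of 8 libraries was analysed from 1 table per line, with samples grouped by the line and treatment in their labels. The authors deposited a signal per gene, a read count scaled by 1 factor for each library (0.777 to 1.32) and not by gene length. The submitters' processing notes name Trim Galore, TopHat2 2.1.0, SAMtools 1.3.1, HTSeq 0.6.0, DESeq, DESeq2 and hg38. Whether counting used strand is not given in the sources used here. Every value (100%, within 0.001 of a read) was a whole number of reads, which gave depths of 30979773 to 64256834 reads on listed genes. ALDH1L2 and SDS had few reads in 769-P, which limits the precision of their values.

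The 10 enzymes, the list of 42 other genes and the tests were chosen with earlier results of these data known, so none is independent evidence. Identifiers were matched to symbols and merged exon lengths in GENCODE 29 (GRCh38). Symbols were found for 25032 of 25431 identifiers in 769-P and for 23881 of 24190 in CAKI-1. The main test was limma 3.58.1 in R 4.3.3 (lmFit, eBayes with trend, two-sided) on log2(value + 1) within a line, for genes with a mean of at least 1, with Benjamini-Hochberg adjustment over all tested genes at 0.05. Fold changes are on that scale. The difference between lines was the interaction term of 1 fit over 8 libraries. Isozyme ratios were tested by exact permutation in scipy. The main limma fits, and edgeR with TMM scaling and DESeq2 within a line, were also run on simulated data with known changes. The other settings were not run on simulated data. Replicates of a group differed by more than counting noise, the chi-square statistic over its degrees of freedom being 3.26 to 11.9. Alternatives changed the pseudocount, filter, scaling, threshold, replicate block, spread and libraries included, and replaced limma by edgeR 4.0.16 or DESeq2 1.42.0 on whole reads recovered from the values. Leaving out a library with the spread taken from both lines was added after seeing the data. Replicate numbers were not treated as pairs in the main test. Deviations of the libraries numbered 1 from their group means correlated at -0.09 in 769-P and 0.06 in CAKI-1. These values cannot show whether libraries of the same number were prepared together.

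All 10 enzymes were named. Any of the 42 could be named, first isozymes of the 10, genes called in both lines and the largest rise or fall of a pathway; CBS, GLDC, SFXN3 and SLC25A32 were chosen after their values were seen. ATF4 and the 5 genes closest in profile were named too. PRODH and PYCR3 were not analysed here, and some genes of these pathways are not reported here.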

Additional observations from a re-analysis of the deposited data

Results flagged for a closer look

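The BCAA effect differed between the lines, by the interaction test of a limma fit over the 8 libraries, for 8 of the 10 enzymes. On the log2 scale, 769-P minus CAKI-1, the differences were -2.88 for PHGDH, -1.98 for PSAT1, -1.86 for ASNS, -1.62 for MTHFD2, -1.13 for PSPH, -1.10 for PYCR1, -0.85 for SHMT2 and -0.77 for MTHFD1L. PSPH was called in opposite directions in the lines, lower with BCAA in 769-P and higher in CAKI-1, and its groups overlapped in neither line. Outside the 10, the test called ATF4 (-0.55), CBS (-0.91), GOT1 (-0.77), SLC25A32 (-0.28), SFXN3 (0.33), GOT2 (0.45) and SHMT1 (0.77). The line, its routine medium and the table it was normalized in cannot be told apart in this design.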

How the results depend on the processing

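The 8 lower calls in 769-P and the 8 differences between lines held within 1.5 times under every alternative run (8 with 1 library left out, and 9 lower calls without replicate 1 without BCAA when the spread came from both lines, where ALDH1L2 joined), the lowest count of differences being 6 with a 2-fold minimum. ALDH18A1, the 1 higher call in 769-P, gave 0 with a 2-fold minimum and 0 with any 1 library left out. With the spread taken from both lines, the count was 2 without replicate 2 without BCAA, where ALDH1L2 joined it. In CAKI-1 the 2 higher calls became 1 with no filter, quantile normalization, an adjusted p under 0.01, edgeR with TMM and thinned reads, and 0 with a 2-fold minimum. They also became 1 when, with the spread from 8 libraries, replicate 1 with BCAA or replicate 2 without was left out. The replicate block left 1 of the 2, gave 8 lower calls in 769-P, and changed no other call of the 10 enzymes. Of the other named genes, SLC25A32 lost its difference (adjusted p = 0.062) and SDS in 769-P was called (adjusted p = 0.042). With a 2-fold minimum the 2 lower calls of CAKI-1 became 0. Leaving out 1 CAKI-1 library with the spread from the remaining 3 gave 0 calls of either direction among the 10 and among the 42 other genes, as it did over all genes (limma, with 4084 to 5590 genes at an unadjusted p under 0.05). With the spread from both lines it gave 2 to 3 lower and 1 to 2 higher calls among the 10, and 2 to 3 lower and 11 to 12 higher among the 42. Of the 42, 5 lower and 14 higher calls in 769-P became 1 and 5 with a 2-fold minimum and 1 to 2 and 6 to 9 with 1 library left out, or 5 to 6 and 10 to 13 with the spread from both lines. In CAKI-1 they became 0 and 1 with a 2-fold minimum.

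Uncalled values near zero changed sign. PHGDH in CAKI-1 was at -0.054 with quantile normalization, -0.0090 with edgeR and TMM, and -0.048 to 0.055 with 1 library left out (-0.048 and -0.026 with the spread from 8 libraries). ALDH1L2, at 16 to 39 reads per library, was at 0.018 in 769-P with quantile normalization and -0.63 to 0.47 with 1 library left out. Under the spread from 8 libraries, those extremes were called (adjusted p = 0.0059 and 0.032). In CAKI-1 it ran from -0.25 to 0.0055. Its difference between lines was -0.051 (edgeR with TMM), -0.060 (edgeR, deposited size factors), -0.054 (DESeq2), -0.25 (thinned reads) and -0.51 to 0.60 with 1 library left out. The cause of these changes was not tested. Of 650 recomputed values of the 10 enzymes, 589 kept their direction and their side of the threshold.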
